A study of Saccharomyces cerevisiae with 96 samples.

Results

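The late phase of a transcription shutoff was examined in yeast cells that lack nonsense-mediated mRNA decay (NMD). Arrays of the Nmd- strain at 45, 50 and 60 min after addition of thiolutin were set against arrays of the same strain at 20, 25 and 30 min. The members were chosen by title, by time and by 2 strain markers, and 16 of the 96 arrays of the series entered the comparison, 7 at 45–60 min and 9 at 20–30 min. The Nmd- strain, YRZ1, carries *upf1*Δ::KanMX4, in which the kanamycin resistance cassette replaces *UPF1*. It was compared for the same times with the congenic Nmd+ strain S288C, which carries *UPF1*. Both strains carried *SUC2* and *CUP1* together with the alleles *mal*, *mel*, *gal2*, *flo1* and *flo8-1*, and both were grown to mid-log phase. Thiolutin was given at 10 µg/ml in all arrays of the late comparison. The notes of the 4 min arrays, which enter only the account of the titled times and its figure, give 14 µg/ml. The series was made to compare the loss of each transcript with and without NMD. Each genotype is represented by 1 strain. The 3 time courses per strain came from separate cultures, but the arrays of 1 course came from 1 culture, so they are repeated samplings of it and not further replicates.

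Upf1p is an RNA helicase that binds terminating ribosomes and, with Upf2p and Upf3p, directs transcripts with premature stop codons to decapping and decay. Thiolutin blocks the RNA polymerases, so transcripts made before its addition are lost at their own rates. Thiolutin is also known to act on cells in other ways, among them the chelation of zinc and the induction of stress genes. In budding yeast, stress and slow growth lower the transcripts for ribosomes and their assembly together and raise those for protective proteins and storage carbohydrates. The deposited signals had been normalized to equal overall level, so every change below is relative to the average RNA on the array and is no measure of RNA per cell.

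The strain markers, which chose the arrays and so are given as a description, were read first. *UPF1* (listed as *NAM7*) had log2 signals of 1.93 to 3.38 in the 16 Nmd- arrays used, against 5.42 to 6.397 in the 16 Nmd+ arrays used. The KanMX4 probe set had 11.97 to 12.40 in the Nmd- arrays and 3.34 to 5.35 in the Nmd+ arrays. The Nmd- arrays at 45 and 50 min of course 1 were left out because their *UPF1* signals, 6.04 and 6.15, and KanMX4 signals, 4.99 and 5.38, were those of the other strain. Course 1 therefore had only its 60 min array at 45–60 min. From the Nmd+ series the 20 min array of course 1 and the 60 min array of course 3 were left out for KanMX4 signals of 8.28 or more. Within the Nmd- arrays used, *UPF1* changed by -0.32 ± 0.16 (SE) at 45–60 min (adjusted p = 0.151) and KanMX4 by -0.12 ± 0.09 (adjusted p = 0.354).

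The titled times did not run in an even order in the Nmd- arrays. Relative to each course's own 20–30 min mean, the median of the general stress list in Nmd- was 0.69 to 0.98 at 6 min in the 3 courses and 1.12 to 1.85 at 10 min in the 2 courses with the strain's markers, while at 8 min it was -0.86 to -0.65 and at 12 min -0.77 to -0.43. Ribosome biogenesis in Nmd- stood at -0.97 to -0.65 at 6 min and -1.52 to -1.12 at 10 min, against 0.28 to 0.94 at 8 min. The arrays titled 10 min in courses 2 and 3 correlated best, over all probe sets, with the 45 min array of their own course (r = 0.72 and 0.60, deviations from the course mean). At 2 min general stress in Nmd- was -0.46 to -0.18, above both 0 min, -1.12 to -0.70, and 4 min, -1.12 to -0.67, and the 2 min arrays of courses 1 and 2 correlated best with 20 min (r = 0.68 and 0.57). The same list medians in Nmd+ showed no such jumps. None of these early arrays is in the comparison. Of the times that are, 20 min stood further from 45–60 min than 15 min did, with general stress medians in Nmd- of -0.69 to -0.25 at 20 min and -0.18 to -0.06 at 15 min. From 25 min on the medians climbed, with 0.08 to 0.18 at 25 min and 0.97 to 1.74 at 60 min. Whether the titles give the times of harvest was not tested. Without the 20 min arrays 599 probe sets were higher and 722 lower, by the call described next.

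**Figure D1:**
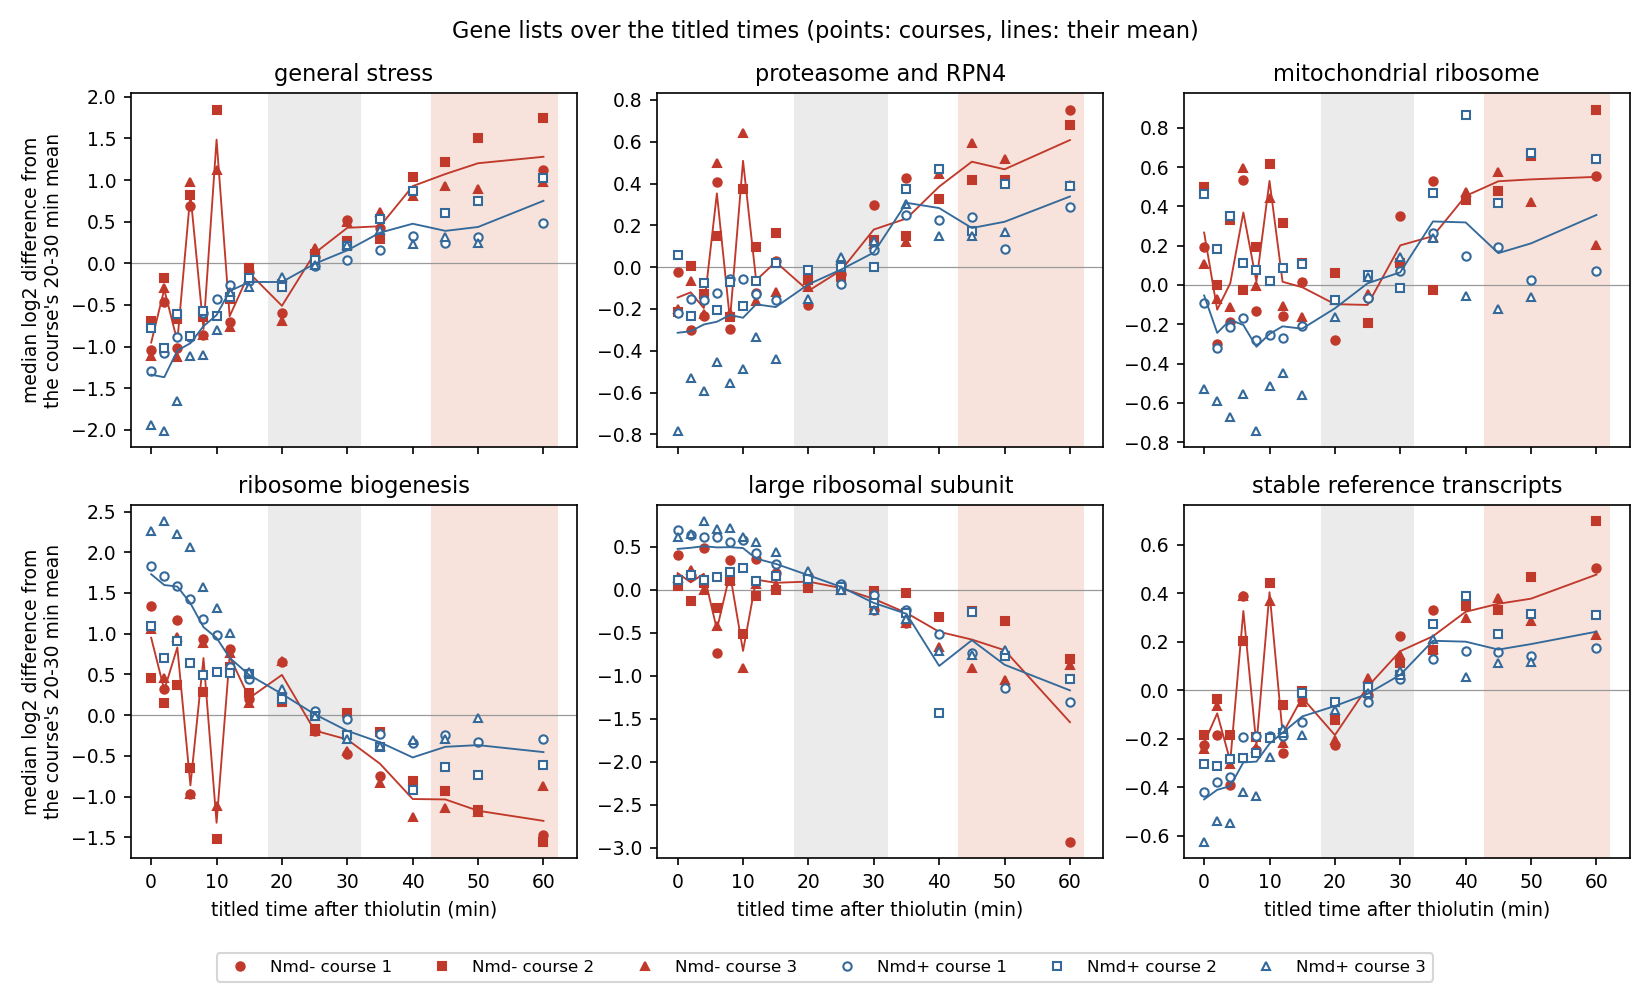
Median log2 difference of 6 gene lists from their own course's 20–30 min mean (vertical) against the titled time in minutes (horizontal), with 1 point per course, filled for Nmd- and open for Nmd+, and lines through the course means. Grey and red shading mark 20–30 and 45–60 min. The Nmd- points at 2, 6 and 10 min lie apart from their neighbours, and from 25 min on the Nmd- general stress list climbs to a mean of 1.28 at 60 min.

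Between 20–30 and 45–60 min, 840 probe sets became higher and 897 lower in Nmd-, 9.06% and 9.67% of the 9275 tested and 18.7% in either direction. A call needed an adjusted p under 0.05 in limma, with the course as a block, and at least a 1.5-fold change. The called probe sets with 1 gene name stood for 691 genes higher and 716 lower. Of the higher calls, 219 reached 2-fold and 31 reached 4-fold, and of the lower calls 397 and 29 did. The median change over all probe sets was -0.01 on the log2 scale. The change had the same sign in all 3 courses for 817 of the 840 higher and 873 of the 897 lower calls, and for 53.2% of all probe sets. Values of the 7 and 9 arrays did not overlap for 113 probe sets, 1.22% of those tested, of which 47 were called higher and 40 lower. Among 315 genes with several probe sets of their own, 106 had at least 1 call and none was called in both directions. All own probe sets were called, and in 1 direction, for 39 genes.

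These counts depend on the scale and on the unit. When each array was centred on 110 probe sets for transcripts that the study took as stable, 185 probe sets were higher and 3296 lower, and the median change of all probe sets was -0.47. The split of calls therefore holds only relative to the average RNA. Before centring these 110 had a median change of 0.41, and some of them are members of the gene lists below. Centring on them moved the median of every list down by the same amount. With 1 mean per course and phase the counts were 401 higher and 496 lower, and with both left-out arrays kept they were 213 and 264. The size of the change also differed by course, with an SD over probe sets of 0.86 in course 1, which rests on its 60 min array, 0.63 in course 2 and 0.49 in course 3.

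Among the largest increases of probe sets with 1 gene name were genes of stress, stationary phase and the cell surface. *SPG4*, needed for survival at high temperature in stationary phase, had log2 signals of 7.99, 8.42 and 11.16 (lowest, median and highest) at 45–60 min and 3.35, 5.11 and 7.80 at 20–30 min. All 7 late arrays were above all 9 earlier ones. Its change was 3.92 ± 0.56 (SE, adjusted p = 1.3e-04), with 5.39, 4.52 and 2.58 in courses 1, 2 and 3. *SPS100*, which encodes a spore wall protein, had 7.92, 8.22 and 10.87 at 45–60 min and 5.19, 5.63 and 7.73 at 20–30 min, again without overlap. The change of *SPS100* was 2.92 ± 0.24 (adjusted p = 7.8e-06). *SSA4*, the heat-inducible cytosolic Hsp70, had 11.47, 11.75 and 12.07 at 45–60 min against 8.02, 9.45 and 10.89 at 20–30 min, a change of 2.60 ± 0.35 (adjusted p = 7.8e-05). Its late arrays lay within 1 log2 unit of each other, while its 20–30 min arrays climbed with time in each course. *FIT2*, a mannoprotein of the cell wall that retains iron-bound siderophores, had 9.54, 10.10 and 10.77 at 45–60 min and 5.79, 7.66 and 9.03 at 20–30 min, a change of 2.78 ± 0.40 (adjusted p = 1.4e-04).

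The other large increases overlapped between phases on some arrays. *GRE1*, a stress-induced hydrophilin, had 5.19, 8.46 and 11.34 at 45–60 min against 3.57, 4.03 and 7.60 at 20–30 min. Its change was 3.81 ± 0.53 (adjusted p = 9.8e-05). *ADH7*, an NADPH-dependent alcohol dehydrogenase, changed by 3.22 ± 0.42 and was even over courses, at 2.91, 3.20 and 3.39. *TKL2*, the minor transketolase, changed by 2.92 ± 0.44 and 2.62 ± 0.39 in its 2 probe sets named here. The second has a name suffix of the array design for probes in common with other sets, so the 2 values may not be independent. *HXT5*, a hexose transporter made in slowly growing cells, changed by 2.78 ± 0.46, and *HBT1*, linked to polarized cell shape, by 2.67 ± 0.26. Each of these was higher in all 3 courses.

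Among the largest decreases of such probe sets were genes of nucleotide synthesis, amino acid synthesis and the making of ribosomal RNA. *AAH1*, adenine deaminase, had log2 signals of 2.66, 4.39 and 5.14 at 45–60 min and 4.91, 7.39 and 8.38 at 20–30 min. The groups overlapped only where course 1 at 30 min, at 4.91, fell under the highest late array. *AAH1* fell by 3.03 ± 0.33 (SE, adjusted p = 2.2e-05), with changes of -3.35, -2.96 and -2.94 by course. *ILV3*, dihydroxyacid dehydratase of isoleucine and valine synthesis, had 6.94, 8.36 and 9.79 at 45–60 min and 10.02, 10.80 and 11.23 at 20–30 min, with no overlap, and fell by 2.35 ± 0.24 (adjusted p = 1.4e-05). *PTR2*, the peptide transporter, fell by 2.59 ± 0.34, most in course 3, at -3.79. *URA7*, CTP synthase, fell by 2.45 ± 0.29.

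Of the other large decreases, *RPA135*, the second largest subunit of RNA polymerase I, had 4.26, 7.12 and 8.89 at 45–60 min and 8.39, 9.37 and 10.16 at 20–30 min. It fell by 2.57 ± 0.33 (adjusted p = 5.8e-05), and its lowest late array was the 60 min array of course 1. *RPA190*, the largest subunit of that enzyme, fell by 2.36 ± 0.44, with changes of -4.20, -1.04 and -2.75 by course. Its probe set has a name suffix for probes shared with other sequences. *RRP5*, needed for pre-rRNA cleavage, fell by 2.42 ± 0.31. *NOP56*, a core protein of box C/D snoRNPs, fell by 2.32 ± 0.36, and *DBP2*, a DEAD-box RNA helicase, fell by 2.34 ± 0.30. *LIA1*, the deoxyhypusine hydroxylase that modifies eIF5A, fell by 2.41 ± 0.30. All were lower in each course.

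**Figure D2:**
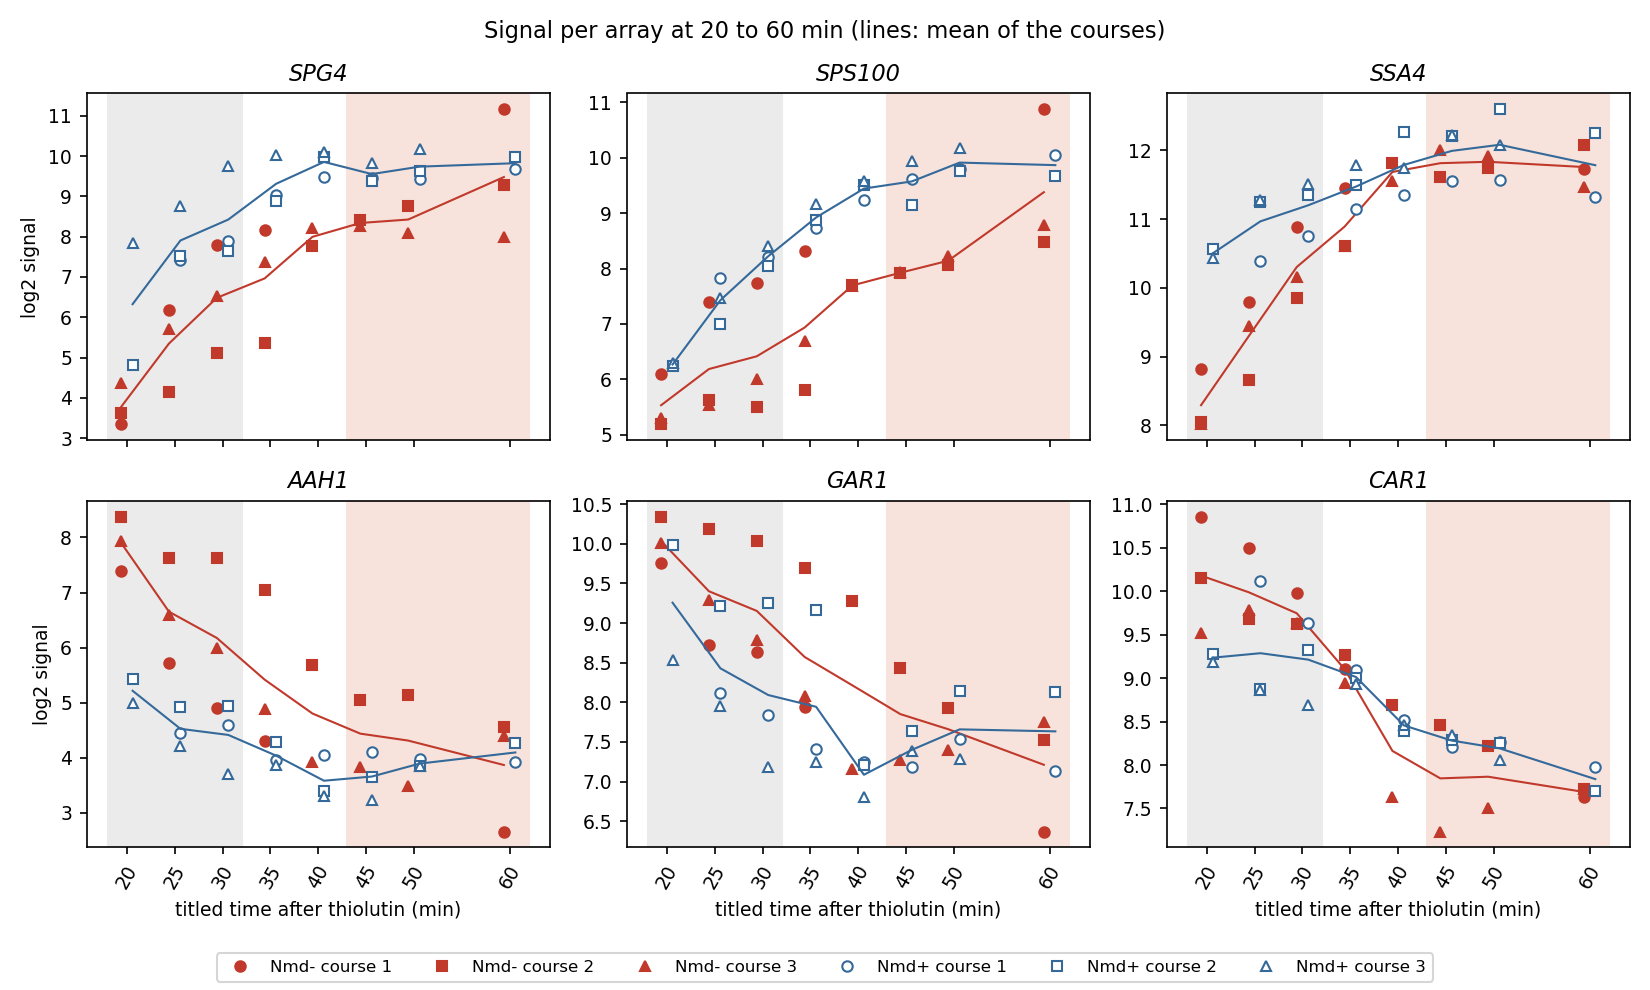
Log2 signal per array (vertical) against the titled time from 20 to 60 min (horizontal) for *SPG4*, *SPS100* and *SSA4*, which became higher, and *AAH1*, *GAR1* and *CAR1*, which became lower. Filled red points are the Nmd- arrays and open blue points the Nmd+ arrays, 1 shape per course, with lines through the means, and shading marks 20–30 min (grey) and 45–60 min (red). *SSA4* in Nmd- reaches its 45–60 min range of 11.47 to 12.07 by 40 min in courses 2 and 3.

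The gene lists gave a broader account. Of 30 probe sets for general stress genes, 27 became higher and none lower, with a median change of 1.20 against -0.01 over all probe sets and course medians of 1.12, 1.56 and 0.88. Centred on the stable transcripts 17 were higher, with a median of 0.73, and without course 2 there were 13. *SIP18*, a hydrophilin, had log2 signals of 5.56, 6.71 and 8.73 at 45–60 min and 3.88, 4.79 and 6.03 at 20–30 min, a change of 2.09 ± 0.27 (SE). *MSC1* changed by 1.55 ± 0.20 and *TFS1*, an inhibitor of carboxypeptidase Y, by 1.22 ± 0.16.

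Storage carbohydrate genes moved with them. Of 20 probe sets for trehalose and glycogen metabolism, 14 became higher and 1 lower, with a median of 0.73. Without course 2 only 3 were higher, and centred on the stable transcripts 4 were, with a median of 0.26. *GDB1*, the glycogen debranching enzyme, changed by 1.44 ± 0.24 (SE), *ATH1*, acid trehalase, by 1.35 ± 0.22 and *PIG1*, a likely targeting subunit of a phosphatase that acts on glycogen synthase, by 0.81 ± 0.14. The chaperone list had 9 of 23 probe sets higher (39.1%, against 9.06% of all) and none lower. Its median was 0.50, with course medians of 0.17, 1.02 and 0.30. The chaperone count was 3 without course 2 and also when centred on the stable transcripts, where the median was 0.03. *SSE2*, a nucleotide exchange factor of Hsp70, changed by 1.35 ± 0.27 but was not called without course 2 (adjusted p = 0.0815), while *CPR6*, a cyclophilin that works with Hsp90, changed by 0.87 ± 0.14.

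Of 49 probe sets for proteasome subunits and their activator, 18 became higher and none lower, with a median of 0.52 and course medians of 0.75, 0.49 and 0.49. Centred on the stable transcripts only 2 were higher and the median was 0.05, and with course means 7 were higher. *ECM29*, a scaffold that holds the core and regulatory particles together, changed by 1.49 ± 0.16 and 1.34 ± 0.22 (SE) in its probe sets, and *PRE3*, a catalytic core subunit, by 0.65 ± 0.11. The probe sets of *PRE3* and 1 of *ECM29* carry name suffixes of the array design. That of *ECM29* marks probes shared with other sequences, so its value may hold more than 1 transcript. That of *PRE3* marks a set with fewer unique probes than the design required.

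Redox defence had 12 of 29 probe sets higher (41.4%, against 9.06% of all) and 1 lower (3.45%, against 9.67% of all). Its median was 0.58, and 4 were higher centred on the stable transcripts, with a median of 0.11. *GRX1*, a glutaredoxin, changed by 0.88 ± 0.13 (SE) and *GPX1*, a peroxidase of lipid hydroperoxides, by 1.02 ± 0.17. The member that fell was *FLR1*, a drug exporter of the plasma membrane, with 8.22, 8.27 and 8.53 at 45–60 min and 8.87, 8.93 and 9.51 at 20–30 min. Its groups did not overlap, and it fell by 0.76 ± 0.12 (adjusted p = 2.3e-04). Drug resistance had 7 of 36 probe sets higher (19.4%, against 9.06% of all) and 1 lower (2.78%, against 9.67% of all). Its median was 0.22, or -0.25 centred on the stable transcripts. *PDR15* and *YOR1*, ABC transporters, changed by 1.55 ± 0.25 and 0.93 ± 0.15, and *PDR1*, the activator of both, by 0.61 ± 0.10, called in 20 of 25 runs that left out a course, a time or an array.

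Of 55 probe sets for mitochondrial ribosomal proteins 23 became higher and none lower, with a median of 0.55 and course medians of 0.56, 0.62 and 0.38. The count was 1 and the median 0.08 when arrays were centred on the stable transcripts, 7 with course means and 5 without course 2. *MRPL23* had log2 signals of 7.93, 8.20 and 8.46 at 45–60 min and 7.12, 7.66 and 7.87 at 20–30 min, with no overlap, and changed by 0.68 ± 0.12 (SE, adjusted p = 6.7e-04). *MRPL40* changed by 0.79 ± 0.14 and *RSM19* by 0.70 ± 0.12. Of 44 probe sets for the respiratory chain and ATP synthase 8 became higher (18.2%, against 9.06% of all) and 1 lower (2.27%, against 9.67% of all). The median of 0.35 turned to -0.12 centred on the stable transcripts. *NDE2*, an external NADH dehydrogenase, changed by 1.72 ± 0.26, *STF1*, which regulates the ATP synthase, by 1.38 ± 0.18 and *ATP12*, needed for its assembly, by 0.80 ± 0.14.

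Autophagy genes had 8 of 28 probe sets higher (28.6%, against 9.06% of all) and none lower. Their median of 0.47 came to 0.00 centred on the stable transcripts. *ATG8*, the ubiquitin-like protein of the autophagosome membrane, had 9.60, 9.98 and 10.58 at 45–60 min and 7.60, 8.90 and 9.32 at 20–30 min. Its groups did not overlap, and it changed by 1.46 ± 0.18 (SE, adjusted p = 3.6e-05). *APE1*, a vacuolar aminopeptidase delivered by the same machinery, changed by 1.53 ± 0.18, and *ATG19*, its receptor, by 0.997 ± 0.18. *APE1* is also among the transcripts taken as stable. Of these 110 probe sets 40 became higher (36.4%, against 9.06% of all) and 3 lower, with a median of 0.41. *PLN1*, a lipid droplet protein, and *AMS1*, vacuolar mannosidase, changed by 1.43 ± 0.16 and 1.43 ± 0.19 and belong to the stable transcripts too. So do *HXT5*, one of the largest increases, and *PDC6*, *RIM4* and *JSN1*, which are described with other lists.

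Metal, phosphate and sulfur genes were mixed. The iron list had 8 of 28 probe sets higher (28.6%, against 9.06% of all) and 2 lower (7.14%, against 9.67% of all). Its median of 0.37 turned to -0.10 centred on the stable transcripts. Besides *FIT2*, *ATX1*, a copper chaperone, changed by 0.77 ± 0.14 (SE), and *VHT1*, the biotin transporter, fell by 0.72 ± 0.11. The zinc list had 5 of 21 higher (23.8%, against 9.06% of all) and 3 lower (14.3%, against 9.67% of all). Its median of 0.36 turned to -0.11 under that centring. *COT1* and *ZRG17*, which carry zinc into the vacuole and the secretory pathway, changed by 0.62 ± 0.12 and 0.76 ± 0.16, while *IZH1*, a membrane protein of zinc homeostasis, fell by 0.77 ± 0.16. Of 16 phosphate probe sets 1 became higher (6.25%, against 9.06% of all), that of *PHM8*. *PHM8* had 8.68, 8.79 and 8.98 at 45–60 min and 6.82, 7.52 and 8.49 at 20–30 min, a change of 1.21 ± 0.24. Without course 2 *PHM8* was not called (adjusted p = 0.0612). *PHO5*, the secreted acid phosphatase, and *VTC3*, of polyphosphate synthesis, changed by 0.44 ± 0.10 and 0.48 ± 0.13 and were under the 1.5-fold minimum.

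Sulfur assimilation had 10 of 33 probe sets higher (30.3%, against 9.06% of all) and 2 lower (6.06%, against 9.67% of all). Its median of 0.23 turned to -0.24 centred on the stable transcripts and was -0.08 in course 3. *SUL1*, a high-affinity sulfate permease, had 6.31, 6.62 and 8.48 at 45–60 min against 3.68, 4.68 and 6.84 at 20–30 min. Only course 1 at 30 min overlapped the late arrays, and the change was 2.12 ± 0.33 (SE, adjusted p = 2.3e-04). *MET3*, ATP sulfurylase, changed by 1.66 ± 0.38 with 2.64 in course 2 and 0.71 in course 3, and was not called without course 2 (adjusted p = 0.17). *CYS3*, cystathionine gamma-lyase, changed by 0.68 ± 0.14. Without course 2, 1 sulfur probe set was higher and 6 were lower.

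Sugar genes moved little as lists. Glycolysis and fermentation had 3 of 23 probe sets higher and none lower, and its median of 0.17 turned to -0.30 centred on the stable transcripts. *TDH1*, a minor glyceraldehyde-3-phosphate dehydrogenase, had 11.87, 12.14 and 12.31 at 45–60 min and 11.20, 11.54 and 11.87 at 20–30 min. It changed by 0.60 ± 0.11 (SE) and was called in 16 of 25 runs that left out a course, a time or an array. *PDC6*, a minor pyruvate decarboxylase, changed by 0.99 ± 0.18, while *FBA1*, aldolase, changed by 0.41 ± 0.10, under the fold minimum. Among 15 hexose transporter probe sets 1 was higher, *HXT5* (6.67%, against 9.06% of all), and 2 were lower (13.3%, against 9.67% of all). These were *HXT1* and *HXT2*, the low- and high-affinity transporters of growing cells, which fell by 0.96 ± 0.17 and 1.08 ± 0.18.

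**Figure D3:**
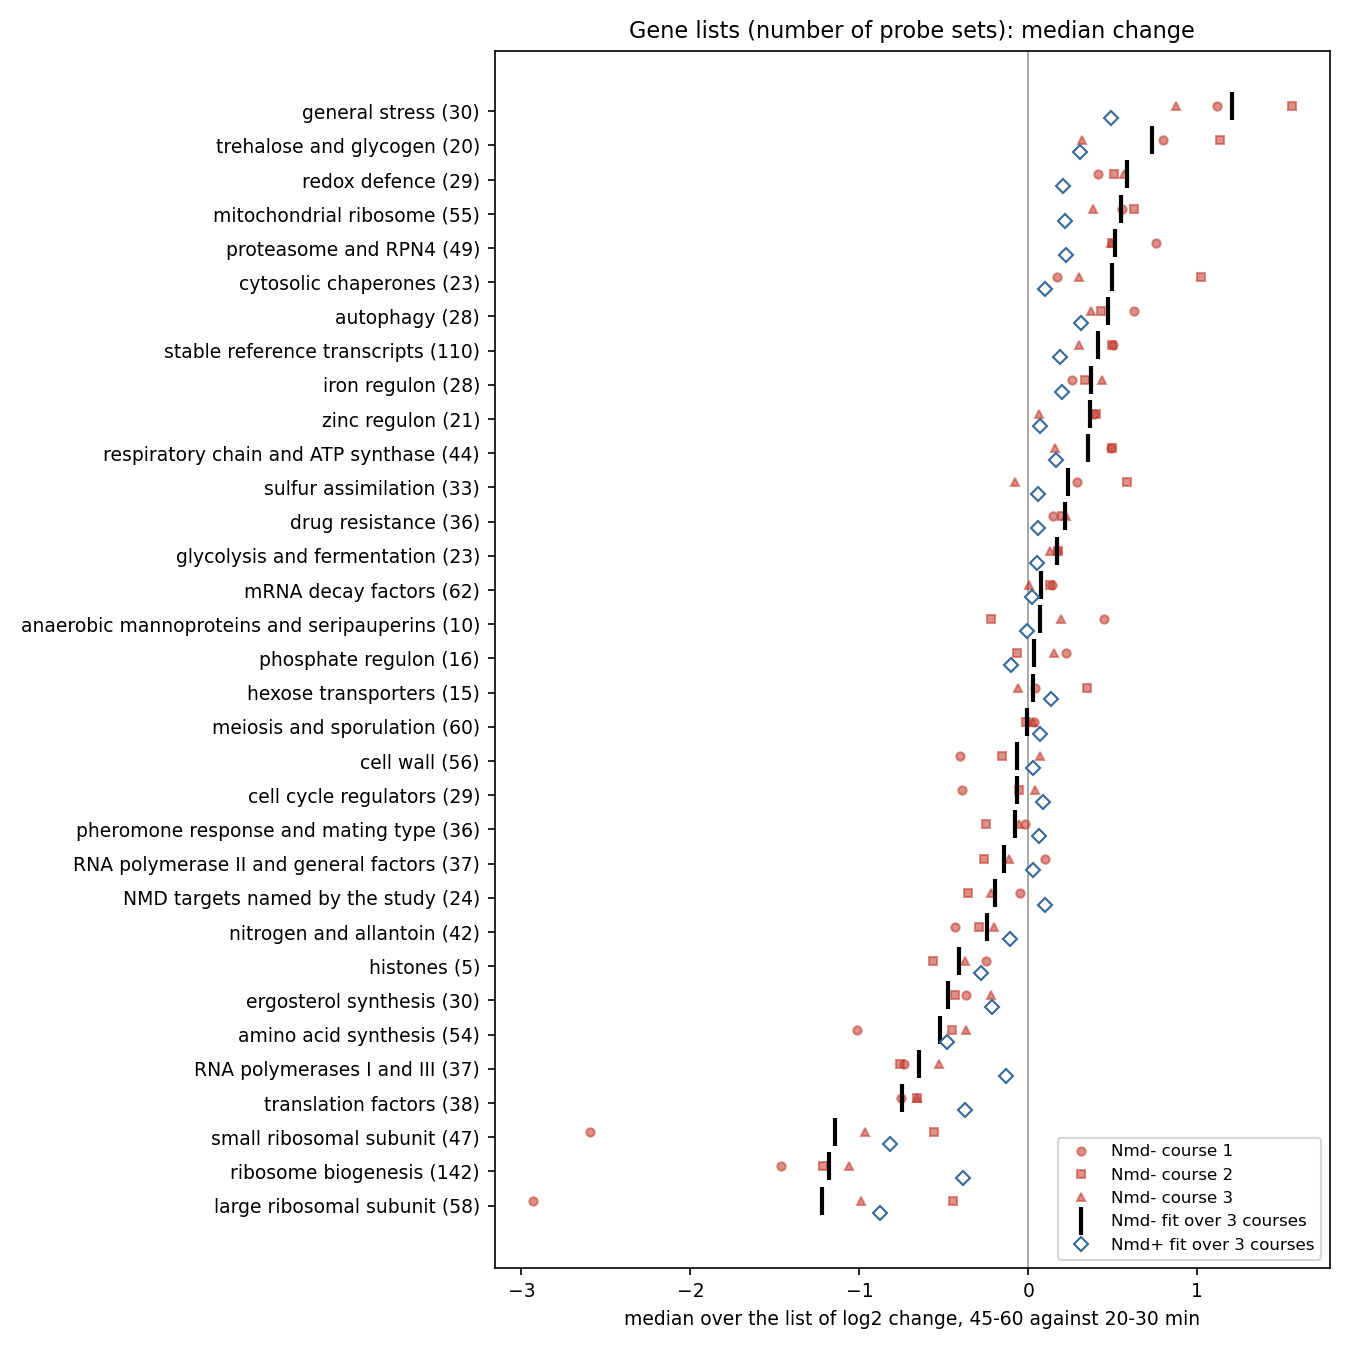
Median log2 change from 20–30 to 45–60 min (horizontal) of each gene list (vertical, with its number of probe sets). Red points are the 3 Nmd- courses, black bars the Nmd- fit and open blue diamonds the Nmd+ fit. General stress lies highest at 1.20, and both ribosomal protein lists and ribosome biogenesis lie lowest, with course 1 far to the left for ribosomal proteins.

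Ribosome biogenesis genes fell in most probe sets. Of 142 ribosome biogenesis probe sets 112 became lower and none higher, with a median of -1.18 and course medians of -1.47, -1.22 and -1.06. With course means 97 were lower, without course 2 there were 74, and centred on the stable transcripts 136, with medians of -1.23, -1.18 and -1.65. *GAR1*, a core protein of box H/ACA snoRNPs, had log2 signals of 6.37, 7.52 and 8.43 at 45–60 min and 8.63, 9.76 and 10.34 at 20–30 min. No late array reached the 20–30 min range, and *GAR1* fell by 2.18 ± 0.21 (SE, adjusted p = 1.1e-05). *SDA1*, needed for large subunit assembly, fell by 2.02 ± 0.21 and *NOC4*, needed for export of the small subunit, by 1.54 ± 0.14, with changes of -1.52, -1.53 and -1.56 by course.

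Ribosomal proteins fell in nearly every probe set but unevenly over courses. Of 58 probe sets for the large subunit 50 became lower and none higher, with a median of -1.22, and of 47 for the small subunit 44 and none did, with a median of -1.14. The course medians were -2.93, -0.44 and -0.99 for the large and -2.59, -0.56 and -0.97 for the small subunit. Course 1 has 1 late array, at 60 min. Without course 1 the counts were 35 and 32 with medians of -0.72 and -0.81, and without the 60 min arrays they were 25 and 26. With 1 mean per course and phase 21 and 22 were lower, and without the course as a block 4 and 5. *RPS26B* fell by 1.99 ± 0.28 (SE), *RPS7B* by 1.67 ± 0.19 and 1.67 ± 0.23 in its 2 probe sets, *RPL36A* by 1.57 ± 0.20, *RPL7B* by 1.51 ± 0.21 and *RPL14B* by 1.30 ± 0.17. Ribosomal protein genes mostly occur as near-identical pairs, and the probe sets of *RPL7B* and *RPL14B* carry a suffix for shared probes. That of *RPL36A* carries the suffix for a set short of unique probes. Values of single copies are therefore uncertain.

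Of 38 translation factor probe sets 26 became lower and 1 higher, with a median of -0.75 and course medians of -0.76, -0.66 and -0.66. *TIF4631*, eIF4G, had log2 signals of 3.89, 5.72 and 6.11 at 45–60 min and 5.60, 7.24 and 7.86 at 20–30 min, and fell by 1.82 ± 0.17 (SE, adjusted p = 7.9e-06). *TIF3*, eIF4B, fell by 1.66 ± 0.15 and *GCD11*, the gamma subunit of eIF2, by 1.25 ± 0.15. Of 37 probe sets for RNA polymerases I and III 18 became lower and none higher, with a median of -0.65, among them *RPC40*, shared by both enzymes, by 1.54 ± 0.17, and *RET1*, of polymerase III, by 1.27 ± 0.15. The list for RNA polymerase II and its general factors had 2 of 37 higher (5.41%, against 9.06% of all probe sets). The list had 5 lower (13.5%, against 9.67% of all), and its median was -0.14. Its members *RPB5* and *RPB10*, which are shared by all nuclear polymerases, fell by 0.999 ± 0.17 and 0.93 ± 0.15, and *SSL2*, a helicase of TFIIH, changed by 0.73 ± 0.12.

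Of 54 amino acid synthesis probe sets 22 became lower and 2 higher, with a median of -0.52. With course means 14 were lower, and centred on the stable transcripts 37, with a median of -0.99. *LEU9*, an isopropylmalate synthase, fell by 1.60 ± 0.20 (SE) and *ILV6*, the regulatory subunit of acetolactate synthase, by 0.82 ± 0.12. Of 42 probe sets for the use of poor nitrogen sources and permeases 12 became lower (28.6%, against 9.67% of all) and none higher. Their median was -0.24, and centred on the stable transcripts 24 were lower. *CAR1*, arginase, had log2 signals of 7.23, 7.72 and 8.46 at 45–60 min and 9.52, 9.78 and 10.86 at 20–30 min. Its groups were more than 1 log2 unit apart, and it fell by 2.10 ± 0.18 (adjusted p = 7.8e-06). *BAP3*, a permease for branched amino acids, had 7.10, 7.92 and 8.48 at 45–60 min and 8.73, 9.41 and 10.02 at 20–30 min, again apart, and fell by 1.47 ± 0.15. *ASP1*, cytosolic asparaginase, fell by 1.34 ± 0.14.

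Ergosterol synthesis had 8 of 30 probe sets lower (26.7%, against 9.67% of all) and none higher, with a median of -0.48. The count was 4 without course 2, 2 with course means and 22 centred on the stable transcripts, with a median of -0.95. The 3 named members of the list each had all late arrays under all earlier ones. *ERG7*, lanosterol synthase, had 5.79, 6.38 and 6.67 at 45–60 min and 6.79, 7.41 and 7.83 at 20–30 min and fell by 1.12 ± 0.16 (SE). *ERG11*, the lanosterol demethylase, fell by 0.72 ± 0.11, and *ERG24*, a sterol reductase, changed by -0.57 ± 0.10, just under the 1.5-fold minimum. Of 56 cell wall probe sets 4 became higher (7.14%, against 9.06% of all) and 9 lower (16.1%, against 9.67% of all), or 2 and 25 centred on the stable transcripts. *PIR3*, a wall glycoprotein, changed by 1.52 ± 0.19, while *GAS3*, of the glucanosyltransferase family, and *WSC2*, a wall stress sensor, fell by 1.43 ± 0.17 and 1.04 ± 0.17, both without overlap. None of 10 anaerobic mannoprotein and seripauperin probe sets was called, *PAU3*, *PAU17* and *PAU23* among them.

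Of 29 cell cycle probe sets 3 became lower (10.3%, against 9.67% of all probe sets) and none higher, among them *TOS4*, which fell by 0.70 ± 0.13 (SE). *CLN2*, a G1 cyclin, and *SWI5*, a transcription factor, changed by -0.51 ± 0.15 and -0.43 ± 0.10 and were not called. Of the 5 histone probe sets that match 1 gene 2 became lower, a number too small to read a share from. They were *HTB2*, an H2B gene, which fell by 0.96 ± 0.18, and *HHO1*, the linker histone, which fell by 0.72 ± 0.13, while *HTB1* changed by -0.41 ± 0.13. Other histone genes share their probe sets and were not counted. Meiosis and sporulation had 2 of 60 probe sets higher (3.33%, against 9.06% of all) and none lower, with a median of -0.01. They were *SPS100* and *RIM4*, an RNA-binding regulator of meiosis, which changed by 1.04 ± 0.19, while *SPS4* changed by -0.50 ± 0.12. Mating had 2 of 36 higher (5.56%, against 9.06% of all) and 6 lower (16.7%, against 9.67% of all), with *STE3*, a pheromone receptor, *STE4*, its G protein beta subunit, and *MF(ALPHA)2*, an alpha-factor gene, falling by 0.91 ± 0.17, 0.67 ± 0.11 and 1.28 ± 0.26.

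Factors of mRNA decay had 4 of 62 probe sets higher (6.45%, against 9.06% of all) and 7 lower (11.3%, against 9.67% of all). The median of 0.07 turned to -0.39 centred on the stable transcripts, with none higher and 18 lower. *RRP6*, the nuclear exosome exonuclease, fell by 1.05 ± 0.18 (SE), *PUF6*, an RNA-binding protein, fell by 1.10 ± 0.20, and *JSN1*, another RNA-binding protein of the Puf family, changed by 0.75 ± 0.13. Transcripts whose level depends on NMD were taken from the 0 min arrays, where 397 probe sets, 4.28% of those tested, were higher in Nmd- than in Nmd+ by the same call. In the late phase of Nmd-, 26 of these became higher (6.55%, against 9.06% of all) and 44 lower (11.1%, against 9.67% of all). The median change was -0.08, with 0.17, -0.26 and -0.01 in courses 1, 2 and 3, so its sign was not shared by the courses. In Nmd+ 13 became higher and 1 lower, where 2.42% and 4.96% of all probe sets did, with a median of 0.13. The difference between strains passed an adjusted p of 0.05 in 17 of the 397, all with the lower change in Nmd-, where 0.679% of all probe sets did, and its median was -0.21. Since the 397 were chosen for a lower signal in Nmd+, this 1-sided count is not an independent test. Whether low signals leave less room to fall in Nmd+ was not tested. Among 24 probe sets for NMD targets that the study named, none became higher and 6 lower in Nmd- (25.0%, against 9.67% of all), with a median of -0.20. Without course 2 there were 1 higher and 2 lower, without the course as a block 1 lower, and centred on the stable transcripts 16 lower. Those singled out here were *UGA3*, an activator of genes for gamma-aminobutyrate use, *SAS2*, a histone acetyltransferase, and *EBS1*, a homolog of telomere proteins, which fell by 0.70 ± 0.11, 0.67 ± 0.13 and 0.62 ± 0.13. *EBS1* was not called without course 2 (adjusted p = 0.0772). The Nmd+ changes of *UGA3*, *SAS2* and *EBS1* were 0.07, 0.11 and 0.13. In the paper's half-life experiments on single transcripts *UGA3* and *SAS2* were indirect targets, with decay not altered in Nmd-.

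The same contrast in Nmd+, with 8 arrays in each phase, called 224 probe sets higher and 460 lower, 2.42% and 4.96% of those tested, or 162 and 414 with its left-out arrays kept. Across all probe sets the changes in the strains had a Pearson r of 0.74 and a Spearman rho of 0.67. The strains share no array here, but they share the array design and the normalization, and genes are not independent. Of the 840 higher calls of Nmd- 173 were also called higher in Nmd+, which is 20.6% of the Nmd- calls and 77.2% of the Nmd+ calls. Of the 897 lower calls 384 were also lower in Nmd+, 42.8% of the Nmd- and 83.5% of the Nmd+ calls. No probe set was called in opposite directions. The called probe sets had median changes of 0.79 in Nmd- and 0.38 in Nmd+ for the higher set, and -0.95 in Nmd- and -0.50 in Nmd+ for the lower set, and since they were chosen on Nmd- the gap between these medians is not a test.

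**Figure D4:**
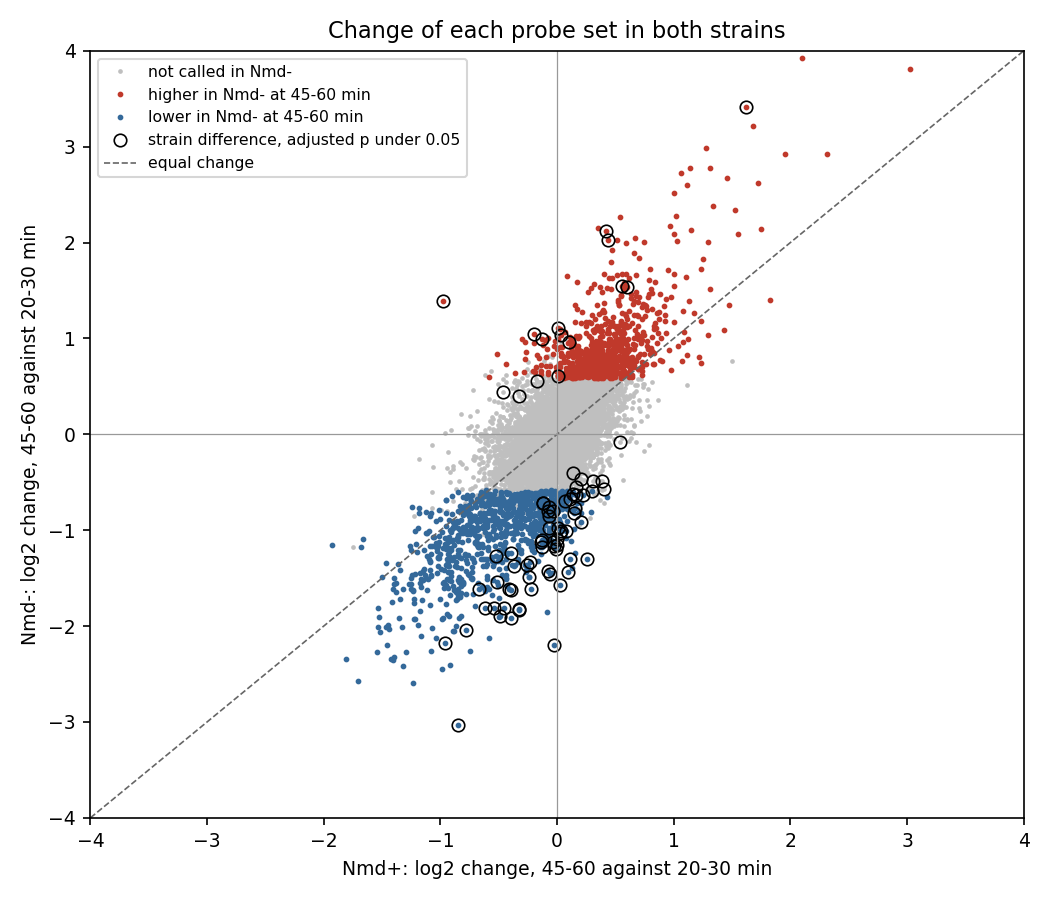
Log2 change from 20–30 to 45–60 min in Nmd- (vertical) and Nmd+ (horizontal) for each of 9275 probe sets. Red and blue points were called higher and lower in Nmd-, grey points were not called, and black circles mark 78 probe sets whose changes differ between strains. Most called points lie further from 0 in Nmd- than in Nmd+.

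The levels of the strains were also compared within each phase, as a description. The median strain gap of the general stress list, Nmd- minus Nmd+, was -0.33 at 0 min, -0.76 at 20–30 min and -0.09 at 45–60 min. For ribosome biogenesis it was 0.07, 0.75 and -0.11 at the same times, and over all probe sets -0.05, -0.12 and -0.07. From 0 to 20–30 min the general stress median changed by 0.96 in Nmd- and 1.32 in Nmd+, and that of ribosome biogenesis by -0.94 in Nmd- and -1.66 in Nmd+. The phase medians of *SPG4* were 8.42 at 45–60 min and 5.11 at 20–30 min in Nmd-, against 9.65 and 7.74 in Nmd+.

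The test of the difference itself, Nmd- change minus Nmd+ change over 32 arrays, passed an adjusted p of 0.05 for 15 probe sets with the higher change in Nmd- and 63 with the lower, 0.162% and 0.679% of those tested. Of the 840 higher calls of Nmd- 12 were among these 15, and of the 897 lower calls 56 were among these 63. The counts were not stable. They were 0 and 0 without Nmd+ course 3 (279 and 459 at an unadjusted p under 0.05), 3 and 3 without Nmd- course 2, 2 and 5 without Nmd+ course 1, 201 and 279 without Nmd- course 3, 200 and 286 without Nmd+ course 2 and 53 and 160 without Nmd- course 1. With 1 mean per course and phase they were 0 and 1 (328 and 441 at an unadjusted p under 0.05).

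Among probe sets with 1 gene name that passed this threshold the largest difference toward Nmd- was that of *SUL1*, whose change was 2.12 in Nmd- and 0.42 in Nmd+, a difference of 1.70 ± 0.38 (SE, adjusted p = 0.0277). *IRC8* had 6.50, 7.004 and 7.40 at 45–60 min and 5.38, 5.87 and 6.22 at 20–30 min in Nmd-, with no overlap, against 4.63, 5.79 and 6.25 at 45–60 min and 5.57, 5.78 and 6.10 at 20–30 min in Nmd+. Its difference was 1.25 ± 0.21 (adjusted p = 0.0059), and the Nmd+ change was -0.99 in course 3 and 0.04 and 0.24 in courses 1 and 2. *YAL037C-A* and *YML131W* differed by 1.12 ± 0.26 and 1.10 ± 0.21, and *MSC1* by 0.99 ± 0.23.

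In the other direction, among such probe sets, *AAH1* differed most, by -2.18 ± 0.39 (SE, adjusted p = 0.0064). Its Nmd+ signals were 3.23, 3.89 and 4.27 at 45–60 min and 3.71, 4.75 and 5.43 at 20–30 min, so the late ranges overlapped between strains, while at 20–30 min every Nmd- array but that of course 1 at 30 min was above every Nmd+ array. *NSR1*, a nucleolar protein of pre-rRNA processing, changed by -2.20 in Nmd- and -0.02 in Nmd+, a difference of -2.17 ± 0.47 (adjusted p = 0.025). *RRS1* and *DBP8*, both for ribosome assembly, differed by -1.59 ± 0.38 and -1.53 ± 0.34, and each was lowered most in Nmd- course 2, by 2.42 and 2.43. *ERC1*, a membrane transporter, had 4.48, 5.56 and 5.99 at 45–60 min and 6.03, 6.61 and 7.71 at 20–30 min in Nmd-, without overlap, and differed by -1.55 ± 0.34. Of the 63 lower differences, which are 0.679% of the 9275 probe sets tested, 8 were ribosome biogenesis probe sets, from 142 on that list. The 63 depend on the courses used, as given above, and so does this count.

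**Figure D5:**
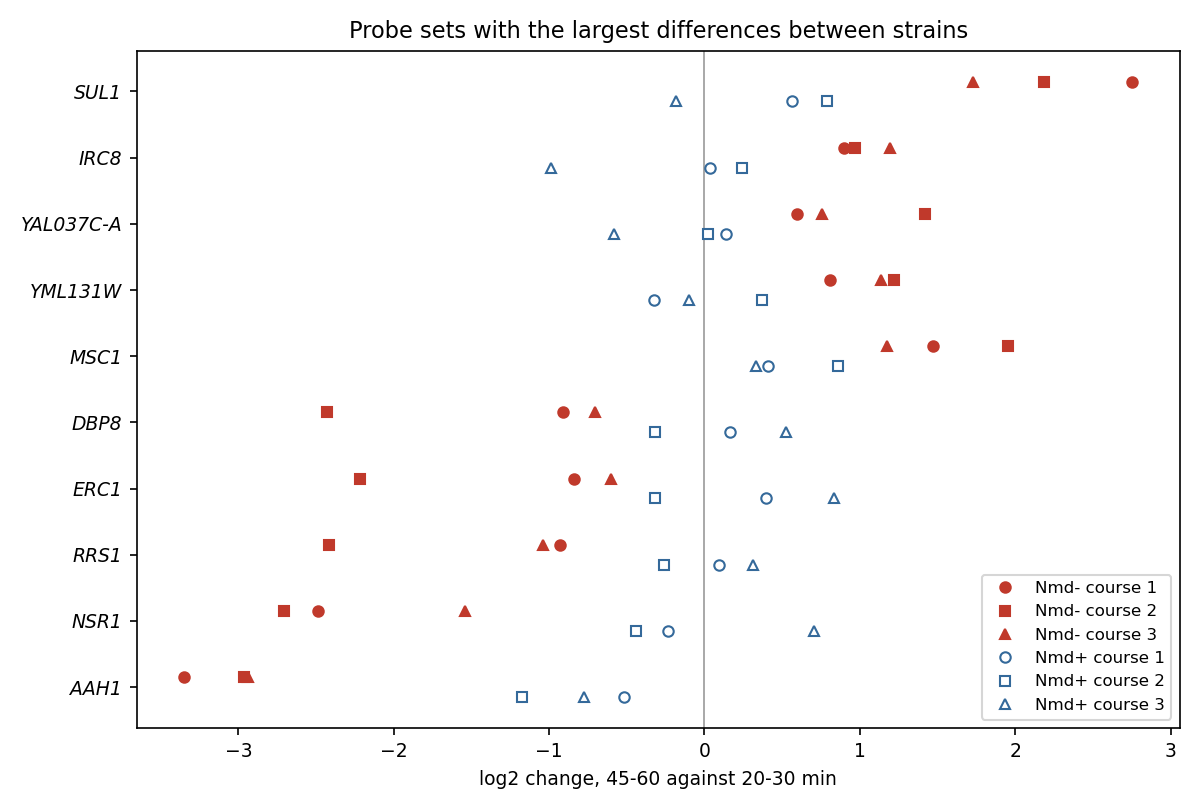
Log2 change from 20–30 to 45–60 min (horizontal) for the 5 largest strain differences in each direction among probe sets with 1 gene name and an adjusted p under 0.05 for the difference (vertical). Filled red points are the 3 Nmd- courses and open blue points the 3 Nmd+ courses. For every gene shown the Nmd- courses lie on 1 side of the Nmd+ courses. The genes were chosen for this difference on the same arrays, so the separation is no separate test.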

How the data were processed

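The deposited table holds log2 signals of 96 Affymetrix YG-S98 arrays, which the authors made from all arrays by robust multi-array averaging (background correction, quantile normalization, median polish). The methods name a natural log, but the highest value, 14.16, exceeds the natural log of the largest scanner intensity, 11.09, so values were taken as log2. After 60 control probe sets were left out, 9275 were tested, 6504 of them with 1 gene name. The contrast was fitted with limma 3.58.1 in R 4.3.3 with the course as a block, and p-values were adjusted by Benjamini and Hochberg over all probe sets. P-values measure spread among arrays, and the arrays of a course share a culture. Deviations of the 2 phases correlated within Nmd- courses (r = 0.54, 0.58 and 0.54) and within Nmd+ courses (r = 0.85, 0.43 and 0.74). In both strains the course 1 arrays used were scanned in another period than those of courses 2 and 3. These correlations therefore cannot tell a shared culture from a shared scan period, and the course block takes up both. Groups came from array titles, since the source field names the mutant for every array. Named genes were both markers, the 10 largest changes each way, up to 3 members per list by adjusted p, and the 5 largest strain differences each way. Members and lists were chosen with earlier results of these data known. The fits were tested on simulated data. Promoter sequences were not analysed here.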

Additional observations from a re-analysis of the deposited data

Results flagged for a closer look

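Single arrays stood apart from the rest of their phase in 26 of 242 groups tested. The groups reuse the same 16 arrays, mix times and courses and hold probe sets largely chosen on this contrast. No chance rate is therefore set beside the count. Of the 26, 24 were the Nmd- 60 min array of course 1, the only late array of that course. At 60 min in course 1 the log2 signal was above the other late arrays for *SPG4* (11.16), *SPS100* (10.87), *HXT5* (11.65), *SSE2* (11.17), *GPX1* (10.00), *PDC6* (7.67), *SSL2* (6.83), *NDE2* (8.59), *SUL1* (8.48), *PAU23* (9.07) and *YML131W* (9.04). It was below them for *RPA135* (4.26), *RPL36A* (8.41), *RPL14B* (7.96), *RPL7B* (4.64), *RPS7B* (7.28 and 6.88), *RPS26B* (4.81), *RPB10* (7.504), *HTB2* (7.18), *ASP1* (7.83), *STE3* (7.12), *MF(ALPHA)2* (5.00) and *GAS3* (6.38). At 20–30 min the low arrays were *HTB2* at 30 min, 8.06, and *ERG24* at 25 min, 7.59, both in course 1.

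The late change differed between strains, Nmd- minus Nmd+, past an adjusted p of 0.05 in limma for 20 named probe sets. Besides the 10 described above, *PHO5* (0.90) and *APE1* (0.93) had the higher change in Nmd-, and *IZH1* (-0.92), *VHT1* (-0.60), *NOC4* (-1.02), *GAR1* (-1.22), *TIF4631* (-1.20), *UGA3* (-0.77), *SAS2* (-0.78) and *EBS1* (-0.76) the lower. The 10 were *SUL1* (1.70), *IRC8* (1.25), *YAL037C-A* (1.12), *YML131W* (1.10), *MSC1* (0.99), *AAH1* (-2.18), *NSR1* (-2.17), *RRS1* (-1.59), *ERC1* (-1.55) and *DBP8* (-1.53).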

How the results depend on the processing

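The counts in Nmd-, 840 higher and 897 lower, became 412 and 384 without the replicate block, 401 and 496 with course means in that paired block, 213 and 264 with both left-out arrays kept, 185 and 3296 centred on the stable transcripts, 219 and 397 at 2-fold and 1561 and 1362 with no fold minimum. Leaving out 1 course gave 445 to 913 higher, lowest without course 2, and 657 to 841 lower. Single arrays gave 710 to 965 and 781 to 967, and without the 60 min arrays 515 were higher. The strain difference, 15 and 63, became 32 and 104 with both Nmd+ arrays kept, 1 and 30 over all 36 arrays, 0 and 0 in limma without the replicate block (259 and 360 at an unadjusted p under 0.05), 0 and 1 with course means, and 290 lower when centred on the stable transcripts. Without 1 course it ranged over 0 to 201 and 0 to 286. Directions reversed for *NAM7* (0.54), *PAU17* (-0.044) and *PAU23* (-0.14) with the left-out arrays kept, and for *PHO5* (-0.033), *FBA1* (-0.061), *PAU17* (-0.22) and *PAU23* (-0.25) when centred. The causes were not tested. Of 108 named probe sets called, 86 were called in all 25 runs that left out a course, time or array. Of the rest, 16 were lost without course 2 (*SSE2*, *PRE3*, *ZRG17*, *PHM8*, *TDH1*, *HXT1*, *MRPL23*, *JSN1*, *PUF6*, *HHO1*, *ERG11*, *CYS3*, *MET3*, *EBS1*, *RRS1* and *DBP8*) and 5 without course 3 (*PDR1*, *COT1*, *TOS4*, *STE4* and *SAS2*), while *IZH1* was lost without the 20 min arrays. Among the arrays fitted, each course was scanned in 1 period, so scan period added nothing to the course block. Within the period of courses 2 and 3 the counts were 767 and 809, and with chip lot added 810 and 873.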
